A study of Mus musculus with 11 samples.

Results

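The genes followed here carry fatty acids and lipoprotein lipid into and out of cells, and were measured in the pancreas and the epididymal adipose tissue of mice with obesity-related alcohol-induced acute pancreatitis (OA-AP). They were the 10 genes Lpl, Gpihbp1, Vldlr, Cd36, Slc27a1, Acsl1, Fabp4, Fabp5, Abca1 and Apoe, chosen by gene name and not by their values. All 10 were listed among the 54532 genes of the pancreas table and the 46078 genes of the adipose table, and all 10 passed the filter on low counts in both tissues.

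RNA was sequenced from male C57BL/6J mice labelled 16 weeks old, with 2 control and 3 OA-AP libraries of pancreas and 3 control and 3 OA-AP libraries of adipose tissue. For 12 weeks the diet held 10 kcal% fat in the control group and 60 kcal% fat in the OA-AP group, and then came 2 intraperitoneal injections 1 h apart, with saline for controls and ethanol at 2 g/kg for OA-AP mice. Tissue was taken 12 h after the first injection. Diet, ethanol and pancreatitis differed together between the groups, so their parts in any difference cannot be told apart. The OA-AP group without treatment was the disease group of the study, and mice given its herbal decoction were not analysed here.

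Triglyceride in blood travels inside lipoproteins. Lipoprotein lipase, the product of Lpl, is made by adipocytes and muscle cells, carried across the capillary wall and held there by Gpihbp1, a protein of endothelial cells, and it frees fatty acids from the particles. Cd36 and Slc27a1 take the fatty acids up, Acsl1 joins them to coenzyme A, and Fabp4 and Fabp5 bind them inside the cell. Vldlr takes up or docks whole particles, while Abca1 passes cholesterol and phospholipid out to apolipoproteins, of which Apoe is one. In adipose tissue this route fills the fat store, and in acute pancreatitis free fatty acids released around the gland are known to injure acinar cells.

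The pancreas libraries held 14188832 to 17238919 counts and the adipose libraries 20825177 to 27928097. Acinar enzyme genes made up 47.96% to 49.1% of the counts in control pancreas and 35.5% to 37.3% in OA-AP pancreas, so levels are given as CPM (reads of a gene scaled to a fixed library size) after TMM scaling, which sets libraries against each other by the genes in the middle of the distribution of changes. Scaling by library totals alone moved the median log2 change of all pancreas genes by 0.71 and of all adipose genes by -0.15. Summed neutrophil markers were 1.20 to 1.99 CPM in control pancreas and 3.6 to 103 CPM in OA-AP pancreas, where replicate 3 was the highest. In adipose tissue they were 6.94 to 12.8 CPM in control and 180 to 198 CPM in OA-AP mice. Adipose control replicate 2 held 5505 CPM of acinar transcripts, against 8.58 to 17.2 CPM in the other 5 adipose libraries. Adipoq, the hormone that defines adipocytes, had 52525 to 110231 counts in the adipose libraries and 0 or 1 in those of pancreas, and the acinar genes Cpa1 and Pnlip marked the pancreas libraries, so the tissues matched their labels.

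A gene was called changed at a Benjamini-Hochberg adjusted p under 0.05 in edgeR's quasi-likelihood test across all genes with a fold change of at least 1.5. By this rule 2 of the 10 genes were upregulated in OA-AP pancreas (Gpihbp1 and Abca1) and 2 were downregulated (Lpl and Vldlr), and 29.8% of all genes tested in the pancreas were called (16.2% up and 13.5% down). In OA-AP adipose tissue 1 gene was upregulated (Fabp5) and 2 were downregulated (Lpl and Acsl1), against 25.1% of all genes called there (12.1% up and 13% down). The counts of 4 and 3 out of 10 were near these shares. The median log2 fold change of the 10 genes was 0.08 in the pancreas and -0.12 in adipose tissue, beside 0.04 and -0.01 over all genes tested. Lpl passed the test in both tissues. The control and OA-AP libraries did not overlap for 62.3% of all genes tested in the pancreas and 52.4% in adipose tissue. Lack of overlap, as given for single genes below, was thus common here. In bulk tissue, fewer cells of a type and less RNA per cell cannot be told apart, which holds for every value below.

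**Figure D1:**
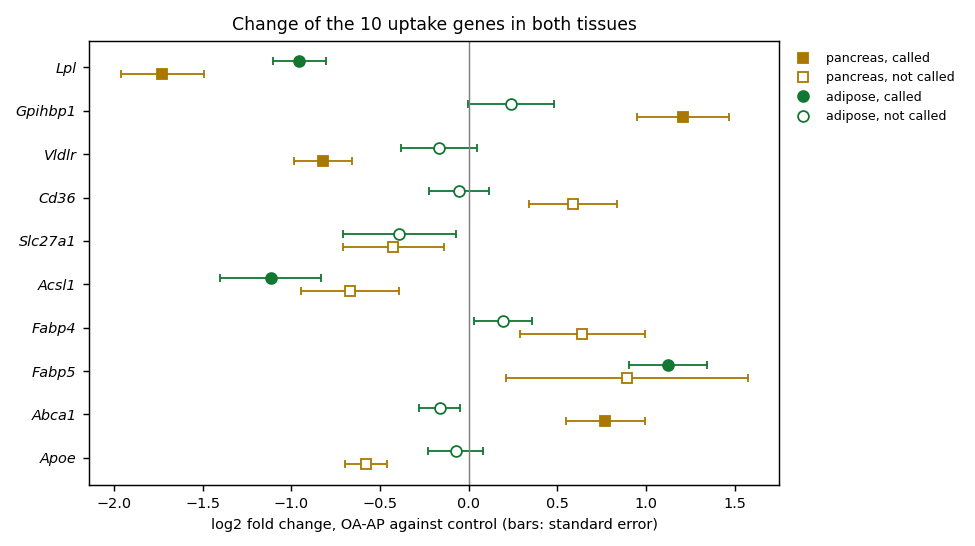
Log2 fold change of each of the 10 genes (rows) in OA-AP against control libraries, for pancreas (squares) and adipose tissue (circles), with bars of 1 standard error and filled symbols for genes that passed the test. Lpl lies left of 0 in both tissues (-1.73 and -0.95), whereas Gpihbp1, Vldlr and Abca1 are filled only for the pancreas and Fabp5 and Acsl1 only for adipose tissue.

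The 10 genes took 0.0262% to 0.0364% of the counts in the pancreas libraries. They took 4.14% to 4.23% in control and 3.28% to 3.46% in OA-AP adipose tissue. With all 11 libraries on one scale, the control level of Fabp4 was 136-fold higher in adipose tissue than in pancreas, that of Cd36 55.6-fold, Acsl1 39.2-fold and Lpl 31.9-fold. Gpihbp1 was 18.2-fold, Apoe 13-fold, Abca1 7.84-fold, Slc27a1 4.17-fold and Fabp5 3.53-fold higher. Vldlr went the other way, at 66.2 ± 0.671 CPM (SD, n = 2) in control pancreas and 40.0 ± 5.13 CPM (n = 3) in control adipose tissue on this scale, and its 2 control pancreas libraries lay above every other library. For Vldlr the other 3 groups overlapped each other. In OA-AP mice the adipose to pancreas ratio was 54.3 for Lpl and 9.24 for Gpihbp1, against 31.9 and 18.2 in controls. The 2 tables were deposited apart, and these ratios between tissues rest on one scaling over both.

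Per kb of transcript, Fabp4 had the highest level of the 15780 genes ranked in all 6 adipose libraries, at 18312 ± 587 CPM per kb in control (SD, n = 3) and 20940 ± 1762 in OA-AP mice (n = 3). Lpl ranked 15 to 17 in control and 30 to 34 in OA-AP adipose libraries. Apoe ranked 16 in each control library and 17 to 19 in OA-AP libraries, and Cd36 26 to 29 and 31 to 36. Acsl1 moved from ranks 48 to 106 to ranks 190 to 318, and Fabp5 from 430 to 595 up to 179 to 308. In the pancreas the highest of the 10 per kb was Apoe in control mice, at 54.0 ± 2.34 CPM per kb (n = 2), and Fabp4 in OA-AP mice, at 53.5 ± 21.5 CPM per kb (n = 3). Lpl fell there from ranks 853 to 880 to ranks 2370 to 4249 of 12875 genes. The order of genes per kb depends on the length used. The principal transcripts used here have 896 bases for Fabp4 and 1408 for Apoe, whereas the deposited gene lengths are 4489 and 2138.

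The lipase and its capillary anchor moved apart in the pancreas. Lpl (ENSMUSG00000015568, chromosome 8, 68880491 to 68907448, plus strand, GRCm38) stood at 81.2 and 87.6 CPM in the control pancreas libraries and at 25.3, 33.3 and 17.9 CPM in the OA-AP libraries. No OA-AP library came near a control library. The fold was 3.31 lower in OA-AP mice (log2 fold change -1.73, SE 0.23, edgeR adjusted p = 0.00161). Lpl was the only one of the 10 genes that kept its call in the pancreas under all 14 alternatives, with log2 fold changes from -1.97 to -1.0.

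Gpihbp1 (ENSMUSG00000022579, chromosome 15, 75596628 to 75599481, plus strand), which holds the lipase on the capillary wall, had few reads in the pancreas, with 32 and 26 counts in the control and 138, 92 and 115 counts in the OA-AP libraries. These were 2.75 and 2.59 CPM in control and 7.25, 5.26 and 6.01 CPM in OA-AP mice. Each OA-AP library was thus above both control libraries, and the level was 2.31-fold higher (log2 fold change 1.21, SE 0.26, edgeR adjusted p = 0.00998). The edgeR call was lost when control replicate 1 (adjusted p = 0.0700), control replicate 2 (0.0831) or OA-AP replicate 1 (0.0506) was left out. Summed endothelial markers were at 80.6 to 102 CPM in control and 70.2 to 90.7 CPM in OA-AP pancreas, and 0 of the 10 markers were upregulated and 2 were downregulated. As a share of all counts the order was the other way, at 0.00638% to 0.00708% in control and 0.00865% to 0.0101% in OA-AP libraries, so the direction of their sum depended on the scaling. Reads of Gpihbp1 per read of these markers were 0.0341 and 0.0255 in control and 0.102, 0.0750 and 0.0663 in OA-AP libraries, with no overlap (exact permutation test, two-sided p = 0.1, the smallest p that 2 against 3 libraries allow; 0.182 adjusted over 20 ratios).

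In adipose tissue Lpl was at 10873, 10618 and 10287 CPM in control and at 5102, 5682 and 5612 CPM in OA-AP libraries. Here too the groups lay far apart with little spread within each, and the level was 1.94-fold lower in OA-AP mice (log2 fold change -0.95, SE 0.15, edgeR adjusted p = 0.00355). Gpihbp1 was at 228, 170 and 175 CPM in control and 177, 313 and 186 CPM in OA-AP adipose libraries. The groups overlapped, and the test found no call (log2 fold change 0.24, SE 0.24, edgeR adjusted p = 0.475).

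Within each library the number of Lpl reads per Gpihbp1 read does not depend on the scaling. It was 29.6 and 33.8 in control pancreas and 3.49, 6.33 and 2.97 in OA-AP pancreas. In adipose tissue it was 47.6, 62.3 and 58.9 in control and 28.9, 18.2 and 30.2 in OA-AP libraries. The ratio was lower in every OA-AP library than in every control library of its tissue, by 7.84-fold in the pancreas and 2.23-fold in adipose tissue (exact permutation tests, two-sided p = 0.1 in each, the smallest that either design allows, and 0.182 adjusted over 20 ratios).

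**Figure D2:**
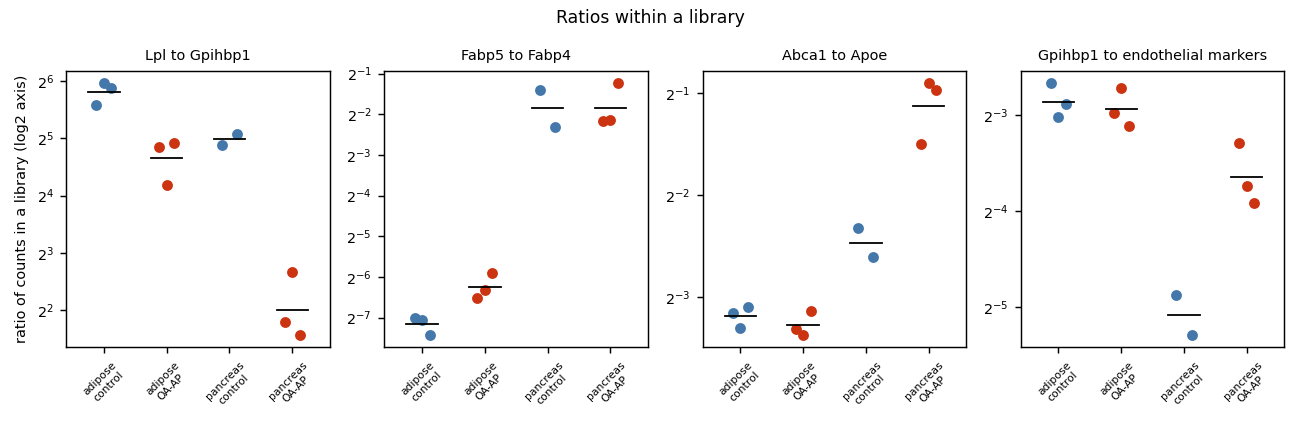
Ratios of read counts within each library (points, log2 axis) with the geometric mean of each group (lines), for adipose tissue and pancreas of control (blue) and OA-AP (red) mice. Lpl to Gpihbp1 is lower in all OA-AP libraries of both tissues, Fabp5 to Fabp4 is higher in OA-AP adipose tissue (0.0110 to 0.0166 against 0.00582 to 0.00777), and Abca1 to Apoe and Gpihbp1 to endothelial markers are higher in OA-AP pancreas.

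Vldlr (ENSMUSG00000024924, chromosome 19, 27216484 to 27254231, plus strand), the receptor for very low density lipoprotein, was downregulated in OA-AP pancreas. It stood at 31.6 and 31.7 CPM in control and at 21.0, 17.5 and 15.3 CPM in OA-AP libraries. The control libraries were nearly equal and above all OA-AP libraries, and the level was 1.77-fold lower (log2 fold change -0.82, SE 0.16, edgeR adjusted p = 0.00660). By library totals alone the log2 fold change of Vldlr was -0.10 (edgeR adjusted p = 0.725), so its call rested on the scaling, and without control replicate 1 or 2 the adjusted p was 0.0620 or 0.0645. In adipose tissue Vldlr was at 75.2, 84.9 and 65.4 CPM in control and 50.5, 89.1 and 61.1 CPM in OA-AP libraries, which overlapped.

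**Figure D3:**
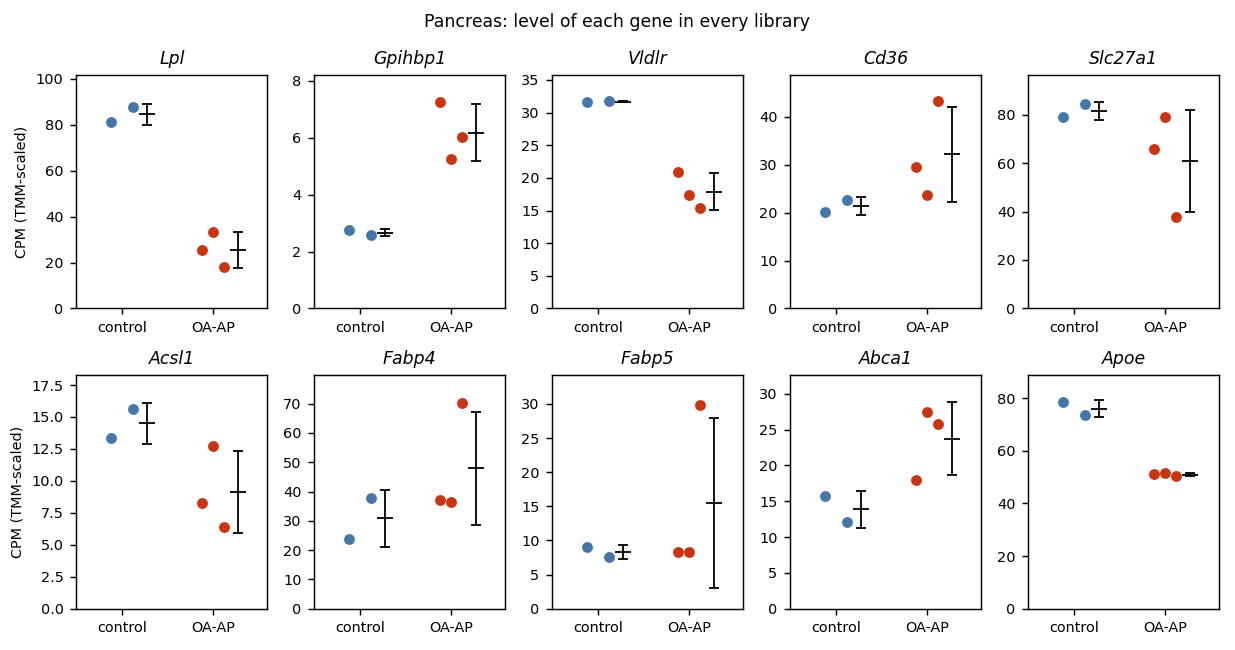
Level of each of the 10 genes in the 5 pancreas libraries (points, CPM after TMM scaling) for control (blue) and OA-AP (red) mice, with the mean and SD of each group in black. Lpl, Vldlr, Acsl1 and Apoe are lower and Gpihbp1, Cd36 and Abca1 higher in all OA-AP libraries. The groups did not overlap for 62.3% of all genes tested in the pancreas. For Fabp4 and Fabp5, 1 OA-AP library, replicate 3, stands above the others.

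Among the genes of fatty acid entry, Acsl1 was downregulated in adipose tissue, while Cd36 and Slc27a1 passed the test in neither tissue. Acsl1 (ENSMUSG00000018796, chromosome 8, 46471037 to 46536051, plus strand), the main acyl-CoA synthetase of adipocytes, was at 2569, 1492 and 2647 CPM in control and at 1164, 728 and 1201 CPM in OA-AP adipose libraries. The lowest control library, replicate 2, was still above the highest OA-AP library, and the level was 2.17-fold lower (log2 fold change -1.12, SE 0.29, edgeR adjusted p = 0.0212). Without control replicate 1 the edgeR adjusted p was 0.0684, and without control replicate 3 it was 0.0734. In the pancreas Acsl1 was at 13.4 and 15.7 CPM in control and 8.30, 12.7 and 6.43 CPM in OA-AP libraries (log2 fold change -0.67, SE 0.28, edgeR adjusted p = 0.100), a direction that library totals alone turned (0.06). It was called there without OA-AP replicate 2 (-0.98, edgeR adjusted p = 0.00996) and with no filter on low counts (-0.59, edgeR adjusted p = 0.0195). Acsl1 overlaps the gene model Gm45244 on the other strand, and the strand setting of the counting is not given in the sources used here.

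Cd36 (ENSMUSG00000002944, chromosome 5, 17781690 to 17888801, minus strand), the fatty acid receptor of adipocytes, capillaries and macrophages, was at 4320, 5226 and 4485 CPM in control and 3899, 5058 and 4544 CPM in OA-AP adipose libraries. These ranges overlapped almost wholly (log2 fold change -0.06, SE 0.17, edgeR adjusted p = 0.815). In the pancreas it was at 20.1 and 22.7 CPM in control and 29.5, 23.7 and 43.2 CPM in OA-AP libraries, which did not overlap, as was the case for 62.3% of all genes tested there (log2 fold change 0.59, SE 0.25, edgeR adjusted p = 0.108). Without OA-AP replicate 3, the library with the most neutrophil transcripts, the log2 fold change of Cd36 was 0.27. Cd36 was called without OA-AP replicate 2 (log2 fold change 0.76, edgeR adjusted p = 0.0237), by library totals alone (1.29) and with no filter on low counts (0.66). Reads of Cd36 per read of the endothelial markers were 2.97, 3.77 and 3.46 in control and 2.79, 2.45 and 2.82 in OA-AP adipose libraries. In the pancreas they were 0.249 and 0.224 in control and 0.415, 0.338 and 0.476 in OA-AP libraries. Without overlap, the ratio was 1.26-fold lower in OA-AP adipose tissue and 1.72-fold higher in OA-AP pancreas. Each had an exact permutation p of 0.1, two-sided, the smallest possible, and 0.182 adjusted over 20 ratios.

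Slc27a1 (ENSMUSG00000031808, chromosome 8, 71568882 to 71587302, plus strand), a fatty acid transport protein of the plasma membrane, varied much among adipose libraries of the same group, at 982, 1226 and 1798 CPM in control and 1402, 676 and 977 CPM in OA-AP mice. In the pancreas it was at 78.9 and 84.3 CPM in control and 65.6, 79.1 and 37.7 CPM in OA-AP libraries. Both tissues showed overlap between the groups, with log2 fold changes of -0.39 (SE 0.32) in adipose tissue and -0.42 (SE 0.28) in the pancreas, where library totals alone gave 0.31.

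Of the fatty acid binding proteins of adipocytes, Fabp5 was upregulated in adipose tissue and Fabp4 was not called in either tissue. Fabp5 (ENSMUSG00000027533, chromosome 3, 10012548 to 10016607, plus strand) was at 126, 128 and 92.9 CPM in control and 211, 213 and 333 CPM in OA-AP adipose libraries. All 3 OA-AP libraries were above the control libraries, and Fabp5 was upregulated 2.18-fold (log2 fold change 1.12, SE 0.22, edgeR adjusted p = 0.00823), a call kept under all 15 alternatives. Fabp4 (ENSMUSG00000062515, chromosome 3, 10204088 to 10208576, minus strand) was at 16250, 16995 and 15978 CPM in control and 19234, 17002 and 20052 CPM in OA-AP adipose libraries. Its groups just failed to overlap, as those of 52.4% of all genes did, and it was not called (log2 fold change 0.19, SE 0.17, edgeR adjusted p = 0.387).

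Reads of Fabp5 per read of Fabp4 in adipose tissue were 0.00777, 0.00755 and 0.00582 in control and 0.0110, 0.0125 and 0.0166 in OA-AP libraries. The ratio was 1.88-fold higher and did not overlap between groups (exact permutation test, two-sided p = 0.1, the smallest that 3 against 3 allow; 0.182 adjusted over 20 ratios). Fabp5 is also made by macrophages and neutrophils. In the same libraries 6 of 6 neutrophil markers tested were upregulated, 4 of 10 macrophage markers were upregulated and 1 was downregulated, and their part in the rise of Fabp5 was not tested. Fabp5 has a near copy in the genome, the processed pseudogene Fabp5l2, so some of its reads may have been counted elsewhere or dropped, and its level is uncertain.

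In the pancreas Fabp5 was at 9.10 and 7.58 CPM in control and 8.24, 8.35 and 29.8 CPM in OA-AP libraries. Only OA-AP replicate 3 was above the control libraries. Its log2 fold change was 0.89 (SE 0.68, edgeR adjusted p = 0.364) with that library and -0.06 without it. Fabp4 was at 23.9 and 37.7 CPM in control and 37.1, 36.5 and 70.1 CPM in OA-AP pancreas, again with replicate 3 the highest, and its log2 fold change was 0.64 (SE 0.35, edgeR adjusted p = 0.208) with and 0.21 without that library. Fabp4 was called in the pancreas by library totals alone (1.34, edgeR adjusted p = 0.00279) and with no filter on low counts (0.71, edgeR adjusted p = 0.00414). Replicate 3 was also the library with 566 counts of S100a8 and 778 of S100a9, against 13 to 115 and 19 to 78 in the other OA-AP pancreas libraries. Of the 7 neutrophil markers tested in the pancreas, 0 were called. Fabp4 had 279 to 1341 counts in the pancreas libraries where Adipoq had 0 or 1, Plin1 0 to 3 and Cidec 0 to 4. The summed adipocyte list was nevertheless higher in OA-AP pancreas, at 32.2 to 51.6 against 12.7 to 14.3 CPM, through Plin4 and Lipe, which were the only markers of the list with enough counts to be tested there and were both upregulated. Which cells of the pancreas gave the reads of Fabp4 and Fabp5 was not tested.

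**Figure D4:**
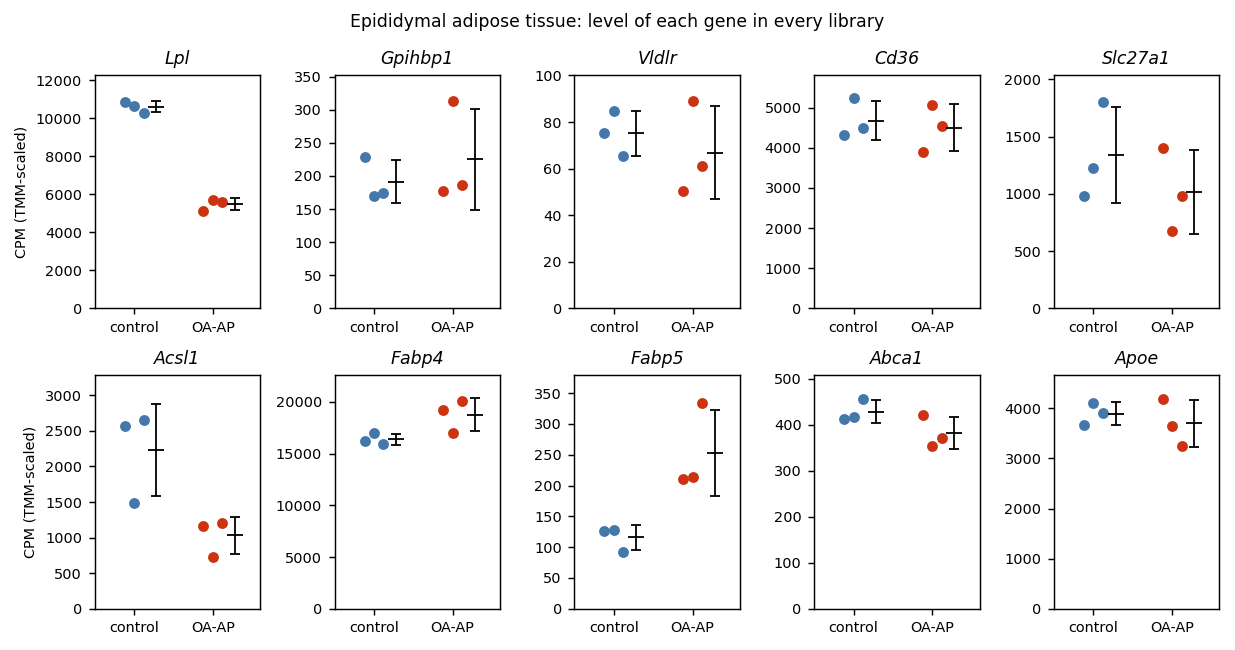
Level of each of the 10 genes in the 6 adipose libraries (points, CPM after TMM scaling) for control (blue) and OA-AP (red) mice, with the mean and SD of each group in black. Lpl and Acsl1 are lower and Fabp5 and, by little, Fabp4 are higher in all OA-AP libraries. The groups did not overlap for 52.4% of all genes tested in adipose tissue. Cd36, Slc27a1, Gpihbp1, Vldlr, Abca1 and Apoe overlap between the groups.

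Adipocyte transcripts were compared within each adipose library, as 2 of the 10 adipocyte markers were downregulated (Plin1 and Adrb3) and 1 was upregulated (Lep). Reads of Lpl per read of the summed markers were 0.499 to 0.6 in control and 0.259 to 0.368 in OA-AP libraries. The Lpl ratio was 1.72-fold lower and that of Acsl1 1.91-fold lower, while Fabp5 was 2.42-fold and Fabp4 1.28-fold higher, each without overlap. For Cd36, Slc27a1, Gpihbp1, Vldlr, Abca1 and Apoe the groups overlapped. Abca1 differed least, at 0.0212 to 0.0228 in control and 0.0214 to 0.0229 in OA-AP libraries. Each ratio without overlap had an exact permutation p of 0.1, two-sided, the smallest possible, and 0.182 after adjustment over 20 ratios.

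Of the efflux pair, Abca1 was upregulated in the pancreas and Apoe passed the adjusted p but not the fold threshold there. Abca1 (ENSMUSG00000015243, chromosome 4, 53030787 to 53159895, minus strand), which loads cholesterol onto apolipoproteins, and Apoe (ENSMUSG00000002985, chromosome 7, 19696109 to 19699188, minus strand) are both textbook targets of the liver X receptors, which sense oxysterols and bind paired hexamers spaced by 4 bases. Their promoter windows from RefSeq on GRCm38.p6, 250 bases before to 50 bases after a gene start, are shown because both genes are such targets. The sequences run 5′ to 3′ on the minus strand of the chromosome, and capitals mark a match to NGGTNA, any 4 bases, NGGTNA on either strand.
Abca1 chr4:53159846-53160145: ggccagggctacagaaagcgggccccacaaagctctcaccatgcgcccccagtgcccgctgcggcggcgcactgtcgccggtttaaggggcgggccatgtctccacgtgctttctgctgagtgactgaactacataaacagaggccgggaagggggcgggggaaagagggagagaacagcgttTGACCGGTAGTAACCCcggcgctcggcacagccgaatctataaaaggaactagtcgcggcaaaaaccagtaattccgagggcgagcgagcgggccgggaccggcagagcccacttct
Apoe chr7:19699139-19699438: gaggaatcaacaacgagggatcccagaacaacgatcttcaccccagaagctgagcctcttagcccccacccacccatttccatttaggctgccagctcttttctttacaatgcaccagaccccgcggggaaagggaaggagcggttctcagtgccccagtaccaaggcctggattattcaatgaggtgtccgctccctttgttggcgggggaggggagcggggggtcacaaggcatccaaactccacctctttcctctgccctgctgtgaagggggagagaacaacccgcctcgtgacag
The Abca1 window held 1 match, on the strand opposite to the gene, and the Apoe window held none, nor did its other 2 windows. This pattern was in 236 of 32851 promoter windows of the same length (0.718%). Windows of Cd36, Slc27a1, Acsl1 and Vldlr had no match either. The hexamer AGGTCA of lipid-sensing nuclear receptors was in the Cd36 window alone of these 6 genes and in 16.3% of all windows, and AGGNCA, any 1 base, AGGNCA was in none of theirs and in 0.381% of all windows. A match is a description of letters and not a site of binding. Sequence outside these windows was not searched, so a window without a match does not show that a gene lacks such a site. Any link between the matches and the changes of these genes was not tested.

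Abca1 was at 15.7 and 12.1 CPM in control and at 18.0, 27.5 and 25.8 CPM in OA-AP pancreas libraries. All OA-AP libraries were above the control libraries, replicate 1 by little, and Abca1 was upregulated 1.71-fold (log2 fold change 0.77, SE 0.22, edgeR adjusted p = 0.0297). The call was lost without control replicate 1 (edgeR adjusted p = 0.0806), control replicate 2 (0.218) or OA-AP replicate 2 (0.0566). Apoe was at 78.3 and 73.7 CPM in control and at 51.0, 51.4 and 50.5 CPM in OA-AP libraries. The OA-AP libraries were close together and below both control libraries, with a 1.49-fold difference (log2 fold change -0.58, SE 0.12, edgeR adjusted p = 0.00783), just under the fold threshold. Apoe was called by DESeq2 (-0.61, adjusted p = 0.00102), with DESeq2 size factors in edgeR (-0.61, adjusted p = 0.00753) and without any 1 of the OA-AP libraries (-0.62 to -0.59, largest edgeR adjusted p = 0.0478), whereas library totals alone gave 0.13 in place of -0.58.

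Reads of Abca1 per read of Apoe in the pancreas were 0.2 and 0.164 in control and 0.353, 0.535 and 0.511 in OA-AP libraries. The ratio was 2.53-fold higher in OA-AP mice without overlap (exact permutation test, two-sided p = 0.1, the smallest possible; 0.182 adjusted over 20 ratios). In adipose tissue both genes stayed within their spread. Abca1 was at 413, 416 and 457 CPM in control and 422, 354 and 371 CPM in OA-AP libraries (log2 fold change -0.16, SE 0.12, edgeR adjusted p = 0.301), and Apoe at 3662, 4108 and 3915 CPM in control and 4196, 3657 and 3254 CPM in OA-AP libraries (-0.07, SE 0.16, edgeR adjusted p = 0.736). Macrophages make both proteins, and the summed macrophage markers were 35.9 to 63.8 CPM in control and 54.1 to 58.1 CPM in OA-AP pancreas, with 0 of 10 upregulated and 1 downregulated. As a share of all counts they were 0.00250% to 0.00505% in control and 0.00644% to 0.00717% in OA-AP libraries, without overlap, and their part in the levels of Abca1 and Apoe was not tested.

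Whether a change differed between the tissues was tested as the tissue by condition term over all 11 libraries. Abca1 was the only one of the 10 genes called, with a change lower in adipose tissue than in pancreas by 0.95 on the log2 scale (SE 0.25, edgeR adjusted p = 0.0187), and 20.6% of all 17046 genes tested were called (10.4% with a positive and 10.2% with a negative difference). For Gpihbp1 the difference was -0.98 (SE 0.39, edgeR adjusted p = 0.104), and for Lpl it was 0.76 (SE 0.42, edgeR adjusted p = 0.229). The calls of Gpihbp1, Vldlr, Fabp5 and Acsl1 in 1 tissue and not in the other are thus not shown to differ between tissues. The Gpihbp1 difference was called without adipose OA-AP replicate 2 (-1.35, edgeR adjusted p = 0.00417) and by library totals alone (-1.82, edgeR adjusted p = 0.00420), and the Fabp5 difference without pancreas OA-AP replicate 3, the library with the most neutrophil transcripts (1.12, edgeR adjusted p = 0.0331). By library totals alone the Acsl1 difference was also called (-1.33, edgeR adjusted p = 0.0393), as were those of Cd36 (-1.48) and Fabp4 (-1.29), and DESeq2 called that of Lpl (0.79, adjusted p = 0.0228). The Abca1 difference was not called without pancreas control replicate 2 (-0.76, edgeR adjusted p = 0.114), with the replicate number as a block (-0.89, edgeR adjusted p = 0.0794) or at a fold threshold of 2.

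A list of 64 further genes of the same routes or of related families was read in both tissues. In the pancreas 48 of the 64 were tested, 8 were upregulated and 12 downregulated, with a median log2 fold change of -0.41 against 0.04 over all genes. Of all genes tested there 16.2% were upregulated and 13.5% downregulated. In adipose tissue 53 were tested, 10 were upregulated and 1 was downregulated, with a median of 0.12 against -0.01, and of all genes tested there 12.1% were upregulated and 13% downregulated. Angptl8, Cavin1 and Cavin2 were untested there because the adipose table did not list them under these names, whatever their level. In the pancreas the number called fell to 10 without control replicate 1 and to 8 without control replicate 2.

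Angptl4, which inhibits lipoprotein lipase, had the largest change of the list and was upregulated in both tissues, from 1.03 ± 0.608 (SD, n = 2) to 59.5 ± 16.1 CPM (n = 3) in the pancreas (log2 fold change 5.81, SE 0.41, edgeR adjusted p = 0.000182) and from 502 ± 93.5 (n = 3) to 1313 ± 209 CPM (n = 3) in adipose tissue (1.39, SE 0.19, edgeR adjusted p = 0.00222). The control pancreas libraries held 6 and 17 counts of Angptl4 and the OA-AP libraries 736 to 1412. Its direction was thus opposite to that of Lpl in both tissues. Angptl2, a secreted relative, fell from 6.01 ± 0.603 to 0.427 ± 0.125 CPM in the pancreas, and Apoc2, the cofactor that activates the lipase, rose from 3.07 ± 0.220 to 7.34 ± 2.60 CPM in adipose tissue.

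Of the lipoprotein receptor genes, 3 of 8 tested were downregulated and 1 was upregulated in the pancreas, and 3 of 9 were upregulated and 0 downregulated in adipose tissue. Sort1, a sorting receptor, fell from 42.5 ± 2.67 to 16.9 ± 3.79 CPM in the pancreas, and Lrpap1, the chaperone of this receptor family, from 23.6 ± 3.02 to 12.3 ± 0.875 CPM. In adipose tissue Scarb1, the receptor for high density lipoprotein, rose from 172 ± 26.8 to 371 ± 46.1 CPM and Lrp8, a close relative of Vldlr, from 1.30 ± 0.234 to 4.15 ± 1.07 CPM. By library totals alone Sort1 and Lrpap1 in the pancreas were not called, at log2 fold changes of -0.60 and -0.22.

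For fatty acid entry, Slc27a4, a relative of Slc27a1, was upregulated in the pancreas (12.4 ± 1.19 to 25.9 ± 1.90 CPM), whereas the synthetase Acsl5 (9.59 ± 0.0274 to 4.27 ± 0.981 CPM) was downregulated. Acss1 was listed with the synthetases but joins acetate, not long-chain fatty acids, to coenzyme A. It was downregulated in the pancreas (18.9 ± 0.441 to 3.95 ± 0.444 CPM). In adipose tissue Acsl4, a synthetase that prefers arachidonic acid, rose from 41.4 ± 4.58 to 138 ± 37.9 CPM while Acsl1 fell. Among the genes listed beside Cd36 (caveolar proteins, palmitoyltransferases and Lyplal1) 3 of 7 tested were downregulated and 1 was upregulated in the pancreas. In adipose tissue 0 of 5 tested were called. Cavin1 and Cavin2 were not listed under these names in the adipose table and so were not tested there. Zdhhc5, a palmitoyltransferase that modifies Cd36, rose from 14.6 ± 0.897 to 22.9 ± 1.46 CPM in the pancreas, and Lyplal1, a lysophospholipase-like protein, fell from 3.43 ± 0.364 to 1.17 ± 0.318 CPM.

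Lipid efflux and nuclear receptor genes gave 3 and 1 calls in each tissue. Npc1, which exports cholesterol from lysosomes, rose in the pancreas from 5.65 ± 2.21 to 18.2 ± 1.74 CPM, and its partner Npc2 fell from 24.4 ± 0.282 to 15.1 ± 0.517 CPM, a change that library totals alone turned (log2 fold change 0.02). In adipose tissue Abca9, a transporter of the same family as Abca1, fell from 45.7 ± 3.16 to 11.7 ± 5.09 CPM, and Soat1, which esterifies cholesterol, rose from 17.5 ± 1.82 to 29.0 ± 4.07 CPM. Rxra, the shared partner of the lipid-sensing nuclear receptors, rose 3.0-fold in the pancreas (32.8 ± 2.00 to 98.6 ± 3.02 CPM, edgeR adjusted p = 0.000197). Ppard, a fatty acid sensor, rose 1.71-fold in adipose tissue (39.1 ± 1.74 to 67.0 ± 5.80 CPM, edgeR adjusted p = 0.00155). Without control replicate 1 or 2 the pancreas calls of Acsl5, Npc2, Zdhhc5 and Lyplal1 were lost, with edgeR adjusted p from 0.0549 to 0.110. That of Zdhhc5 was also lost without OA-AP replicate 1 (edgeR adjusted p = 0.0519) or 3 (log2 fold change 0.554, under the fold threshold). By library totals alone Acsl5 (log2 fold change -0.45, edgeR adjusted p = 0.205) and Lyplal1 (-0.82, edgeR adjusted p = 0.135) were not called in the pancreas. Soat1 in adipose tissue was then under the fold threshold (0.576). All ± values of these pathway genes are SDs over 2 control and 3 OA-AP libraries in the pancreas and 3 and 3 in adipose tissue, and the edgeR adjusted p of the genes named without one lay between 0.000154 and 0.0145.

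**Figure D5:**
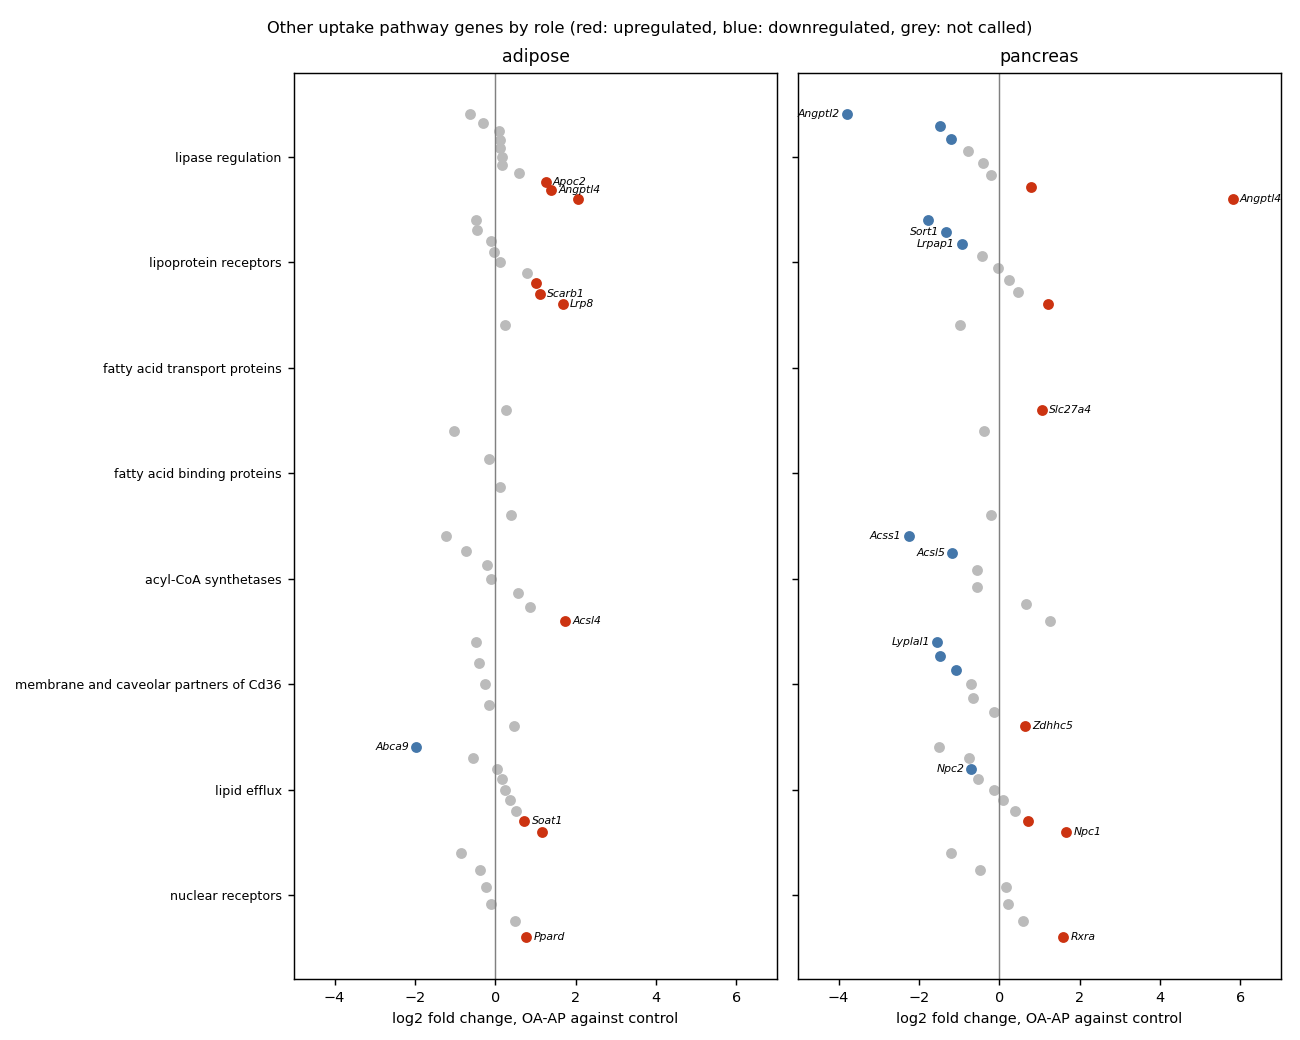
Log2 fold changes (horizontal axis) of the further pathway genes by role (rows) in adipose tissue (left) and pancreas (right), with upregulated genes in red, downregulated genes in blue and others in grey, and names at the genes given in the text. The pancreas shows 8 red and 12 blue points and adipose tissue 10 red and 1 blue, and Angptl4 lies farthest to the right, at 5.81 in the pancreas.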

How the data were processed

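RNA from 5 pancreas and 6 epididymal adipose samples was sequenced. The authors trimmed reads with Trim Galore 0.6.6, checked them with fastp 0.20.1, mapped them to GRCm38 with STAR and counted them with featureCounts 2.0.1, and the deposited values are raw counts for each gene. The annotation release and the strand setting are not given in the sources used here. Groups came from the labels, and each library was taken as a separate mouse, so p-values measure the spread between these samples.

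Counts were filtered with filterByExpr, scaled by TMM and tested per tissue with edgeR 4.0.16 (robust quasi-likelihood test, Benjamini-Hochberg adjustment, R 4.3.3). Calls needed an adjusted p under 0.05 together with a 1.5-fold change or more, over 12884 pancreas and 15839 adipose genes tested. Standard errors came from the log2 fold change and its F statistic. The difference between tissues was the interaction over 17046 genes and 11 libraries, taken as independent, since the labels do not say whether pancreas and adipose samples share mice. Ratios within libraries had exact permutation tests. Levels per kb used the GENCODE M21 principal transcript. Promoter windows were matched by symbol in RefSeq, where 6 of the 10 genes had one. Tests were tried on simulated data that gave all genes 1 common spread, unlike the real genes. There edgeR found 126 of 195 changed genes in the pancreas (9 false calls) and 164 of 195 in adipose tissue (7 false calls). For the tissue difference it found 68 of 197 (5 false calls), so most planted differences were missed in that setting. The share missed among real genes cannot be read from it, and a tissue difference without a call is not shown to be absent.

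Pathway genes were named by the smallest p among called genes, at most 2 per role and tissue. The genes, lists and tests were chosen with earlier results of these data known. Alternatives included DESeq2 1.42.0, other scalings and filters, other fold thresholds, a replicate block, and leaving out each library. Intervals from counts were not used, and replicates differed by more than counting noise (chi-square per degree of freedom 7.56 or more).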

Additional observations from a re-analysis of the deposited data

Results flagged for a closer look

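The change of Abca1 differed between the tissues by the test of the difference itself, at -0.95 on the log2 scale for adipose tissue minus pancreas (SE 0.25, edgeR adjusted p = 0.0187). Such a difference was called for 20.6% of all genes tested. Abca1 was higher in 3 of 3 OA-AP pancreas libraries than in either control library, and its groups overlapped in adipose tissue. In the pancreas the groups of 62.3% of all genes did not overlap. Over the alternatives the difference lay between -1.77 and -0.76, with adjusted p from 0.000212 to 0.114. The call was lost without pancreas control replicate 2 (edgeR adjusted p = 0.114), with the replicate block (0.0794) and at a fold of 2.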

How the results depend on the processing

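Depth limits Gpihbp1 most in the pancreas, with 26 to 138 counts a library, and 2 control libraries limit every pancreas call. In the pancreas 4 of the 10 genes were called, against 7 with no filter, 2 at a fold of 2 and 1 to 6 with 1 library left out. Only Lpl was called without either control library. All genes called there were 3834, against 6349 by library totals alone (5843 up, 506 down, where TMM gave 2090 and 1744), 2464 at a fold of 2 and 1495 to 4265 with 1 library left out. In adipose tissue 3 of the 10 genes were called, against 2 to 3 with 1 library left out, and all genes called were 3981, against 2228 at a fold of 2. The tissue difference called 1 of the 10 genes, against 2 by DESeq2, 5 by library totals alone, 0 at a fold of 2, 0 with the replicate block and 0 to 2 with 1 library left out. Over all genes it called 3507, against 6527 by library totals alone (374 positive, 6153 negative, where TMM gave 1775 and 1732), 2156 with the block and 2332 to 3654 with 1 library left out. Causes were not tested, beyond fewer libraries or a stricter threshold.

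Library totals alone turned the pancreas log2 fold changes of Slc27a1 (0.31), Acsl1 (0.0584), Apoe (0.13) and Npc2 (0.0187), and the tissue differences of Slc27a1 (-0.86), Fabp5 (-0.56), Lpl (-0.10), Vldlr (-0.21) and Apoe (-0.35). The tissue difference of Slc27a1 also turned with TMM factors computed without acinar markers (-0.0372) and with at least 10 counts in every library (-0.0144). With 1 library left out, log2 fold changes that turned ranged from -0.0583 to 1.19 for Fabp5 in the pancreas and, in adipose tissue, from -0.14 to 0.045 for Cd36, -0.43 to 0.00617 for Vldlr, -0.0716 to 0.40 for Gpihbp1 and -0.17 to 0.0157 for Apoe. Tissue differences so ranged from -0.32 to 0.25 for Slc27a1 and -0.0894 to 1.12 for Fabp5. Log2 differences of ratios ranged from -0.45 to 0.47 for Fabp5 to Fabp4 in the pancreas and, in adipose tissue, from -0.0564 to 0.31 for Cd36, -0.34 to 0.25 for Vldlr and -0.0226 to 0.0273 for Abca1 to adipocyte markers and -0.19 to 0.0169 for Gpihbp1 to endothelial markers. With the first 5 adipocyte markers alone the Abca1 ratio was -0.000722.

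Deviations from the group mean had correlations of -0.16 to 0.09 between same-numbered libraries and -0.25 to 0.29 between differently numbered ones. With 2 or 3 libraries a group these values can neither show nor exclude pairing, so the block was kept as an alternative. Whether same-numbered pancreas and adipose samples came from 1 mouse is not given in the labels. With the replicate block 4 of the 10 genes were called in the pancreas and 3 in adipose tissue, as without it. The pancreas log2 fold change of Fabp5 was -0.0079 with the block.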
